A study of Mus musculus with 6 samples.

Results

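The genes of the complement system and of the lectin pathway that triggers it were examined in the livers of mice in which hepatic Rnf10, a gene for a RING finger ubiquitin ligase, was silenced. The list held 35 genes, chosen by name as complement components, lectin pathway proteins, regulators and receptors, out of 55487 genes in the count table. Of these members, 34 had enough counts to be tested, out of 14046 genes tested. The remaining member, Cfd, had between 0 and 4 counts per mouse.

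Liver RNA was sequenced from 3 wild-type mice given GalNAc-siNC and from 3 given GalNAc-siRnf10, each mouse providing 1 library. GalNAc-siNC carries a control siRNA and GalNAc-siRnf10 an siRNA against Rnf10, both injected under the skin of animals on normal chow, and all livers were taken at 17 weeks of age. The GalNAc ligand binds the asialoglycoprotein receptor of hepatocytes, so the siRNA is directed to hepatocytes while the RNA came from unsorted liver. The paper's methods name the mice given these conjugates as male C57BL/6J, and the dose and schedule of this experiment are not given in the labels.

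Total counts lay between 26854377 and 33058645 per mouse, and 3 counts, the smallest number taken as detected, were between 9.07e-06% and 1.12e-05% of a library, which covers counting error only. Rnf10 had 3869, 4536 and 4040 normalized counts in the GalNAc-siNC group and 1738, 1821 and 1793 in the GalNAc-siRnf10 group, a log2 fold change of -1.22 (SE 0.0715, adjusted p = 3.29e-09, edgeR). Normalized counts are counts scaled to a common library size. GalNAc-siNC-treated mouse 1 stood apart by gene length. Its long genes deviated from the mean of the other mice in its group by 0.236 more than its short genes (medians, log2 scale). By the same measure the other mice lay between -0.142 and 0.03, where for the other controls that mean includes mouse 1. All 6 libraries carried the same batch label.

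Complement is a cascade of plasma proteins, most of them secreted by hepatocytes. C1q bound to antibodies starts the classical pathway, while mannose-binding lectins, ficolins and collectins bound to sugars start the lectin pathway, and the alternative pathway amplifies both. All routes cleave C3 and then C5, after which C6 to C9 assemble into the membrane attack complex. Regulators in plasma and on cell membranes hold the cascade in check. In mice, C5 is encoded by Hc, and of the gene pair C4a and C4b the latter encodes the functional C4.

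In the GalNAc-siRnf10 group, 13 members fell and 5 rose, with 16 of the 34 tested members not called. A gene was called when its adjusted p was under 0.05 in edgeR's quasi-likelihood test over all genes tested. Among all genes tested, 7.28% were lower and 6.71% were higher by the same rule. The members that fell were C3, C4b, Cfb, Hc, C6, C8a, C8b, C9, Masp1, Mbl1, C4bp, Serping1 and Clu. They cover the central component, the C4 and C5 components, an alternative pathway protease and most of the membrane attack complex. The others are a lectin, a lectin pathway protease and 3 plasma regulators. Those that rose were Mbl2, Colec10, Colec11, Cfhr2 and Cd55, which are 3 lectins, a plasma regulator and a membrane regulator. All 3 GalNAc-siRnf10-treated mice lay below all 3 controls for 16 of the 34 tested members and above them for 5. Of all genes tested, 16.4% and 16.5% were separated in these directions. The share of members above the controls was thus not larger than that of all genes tested. The median log2 fold change of the tested members was -0.06, beside 0.00 for all genes tested. Changes were of moderate size, since log2 fold changes over the tested members ran from -0.57 for Cfb to 0.61 for Cd55.

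**Figure D1:**
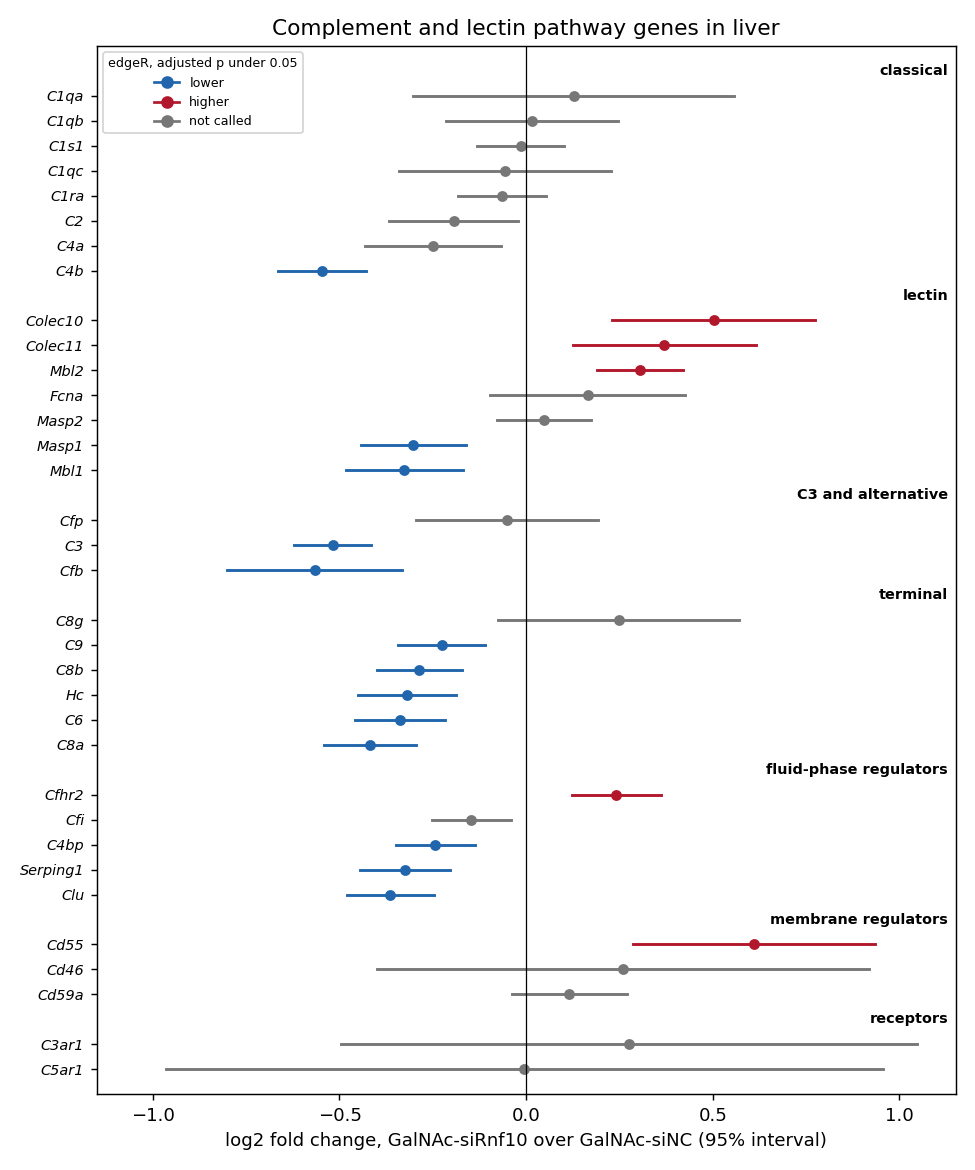
Log2 fold change of each tested member in GalNAc-siRnf10-treated over GalNAc-siNC-treated livers (x axis), ordered by role, with points for the edgeR estimate, lines for its 95% interval and colors for the call at an adjusted p under 0.05 (n = 3 mice per group). Of the 6 terminal pathway genes 5 lie to the left of 0, whereas the lectin pathway genes are found on both sides.

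The promoters of members that moved together or apart are shown so that their sequences can be set beside the expression values. RefSeq windows of 300 bases around the annotated start (GRCm38.p6) were found for 25 of the 35 members. C3, Hc, C8a and C9 were among the members that fell. C3 lies on chr17:57228087-57228386 (minus strand), Hc on chr2:35061363-35061662 (minus strand), C8a on chr4:104876349-104876648 (minus strand) and C9 on chr15:6445096-6445395 (plus strand). Capitals mark the motif match described after the sequences and the first transcribed base, and every sequence reads 5′ to 3′ on the gene's strand.
C3: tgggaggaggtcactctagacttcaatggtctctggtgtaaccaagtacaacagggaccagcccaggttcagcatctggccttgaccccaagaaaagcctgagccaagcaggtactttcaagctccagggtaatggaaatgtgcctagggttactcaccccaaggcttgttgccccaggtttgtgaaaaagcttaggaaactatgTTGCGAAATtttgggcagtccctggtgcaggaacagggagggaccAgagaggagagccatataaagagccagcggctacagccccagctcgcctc
Hc: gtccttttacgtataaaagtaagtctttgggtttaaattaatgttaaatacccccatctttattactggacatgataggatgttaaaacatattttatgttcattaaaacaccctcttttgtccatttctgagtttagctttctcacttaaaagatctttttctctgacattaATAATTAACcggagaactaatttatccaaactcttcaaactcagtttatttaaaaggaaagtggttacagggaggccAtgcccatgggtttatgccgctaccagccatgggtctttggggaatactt
C8a: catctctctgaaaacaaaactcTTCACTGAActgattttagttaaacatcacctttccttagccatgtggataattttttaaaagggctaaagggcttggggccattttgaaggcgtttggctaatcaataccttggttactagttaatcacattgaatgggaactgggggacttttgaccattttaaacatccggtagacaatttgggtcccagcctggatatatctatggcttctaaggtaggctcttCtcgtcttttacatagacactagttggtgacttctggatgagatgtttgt
C9: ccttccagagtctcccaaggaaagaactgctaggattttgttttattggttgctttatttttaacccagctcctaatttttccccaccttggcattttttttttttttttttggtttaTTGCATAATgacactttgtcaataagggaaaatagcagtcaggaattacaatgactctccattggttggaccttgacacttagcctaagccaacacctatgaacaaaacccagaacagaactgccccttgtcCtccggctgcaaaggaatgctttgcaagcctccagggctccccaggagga

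Next, 4 motifs of factors known from liver gene regulation were searched on both strands. TTGCNNAAT, a C/EBP motif, was found in the windows of C1s1, C3 and C9, which are 12% of the 25 members with a window, against 2.4% of all 32851 windows. GTTAATNAT, an HNF1 motif, was found for C4bp, Cfhr2 and Hc, again 12%, against 0.801% of all windows. This motif, like the NF-kB motif below, was shortened by 1 base after first matches had been seen. Shares for both are a description only. TTCNNNGAA, the palindrome bound by STAT factors, was found for C1ra, C8a, Cfhr2, Colec11 and Masp2, which are 20% of the members and 8.3% of all windows. GGNNTTTCC, an NF-kB motif, was found for C3ar1 alone, 4% of the members and 5.82% of all windows. Members holding a STAT motif included 1 that fell and 2 that rose, those holding an HNF1 motif 2 that fell and 1 that rose, and those holding a C/EBP motif 2 that fell. Only 8 of the 13 members that fell and 4 of the 5 that rose had a window, so no link of motif and direction is drawn. Members were counted once if any of their windows matched, whereas the shares of all windows count each window. A match describes the letters of the window and is not evidence that a factor bound there.

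Mbl1 and Mbl2 encode the mannose-binding lectins A and C and moved in opposite directions, so both promoters are given. Mbl1 lies on chr14:41151206-41151505 and Mbl2 on chr19:30232678-30232977, both on the plus strand. Neither window held any of the 4 motifs. Capitals mark the longest stretch that both share, 13 bases found in 3 of the 32851 windows, and the first transcribed base.
Mbl1: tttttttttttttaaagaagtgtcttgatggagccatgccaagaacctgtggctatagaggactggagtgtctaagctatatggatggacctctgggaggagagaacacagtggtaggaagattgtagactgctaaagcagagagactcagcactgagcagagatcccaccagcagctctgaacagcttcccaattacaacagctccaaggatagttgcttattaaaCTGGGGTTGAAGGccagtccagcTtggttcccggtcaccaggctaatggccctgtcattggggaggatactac
Mbl2: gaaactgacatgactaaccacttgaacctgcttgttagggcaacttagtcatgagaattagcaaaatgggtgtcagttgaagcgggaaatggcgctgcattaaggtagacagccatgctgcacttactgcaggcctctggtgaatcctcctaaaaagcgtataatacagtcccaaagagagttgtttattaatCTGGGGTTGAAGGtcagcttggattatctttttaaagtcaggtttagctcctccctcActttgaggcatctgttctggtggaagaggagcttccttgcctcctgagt
The shared stretch begins 23 bases before the first transcribed base of Mbl1 and 57 bases before that of Mbl2.

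C3, on which all pathways converge, was the most abundant member per unit of length, at 6074 TPM (counts per gene length, scaled to the same sum in every library) in the GalNAc-siNC group and 3936 TPM in the GalNAc-siRnf10 group. Its normalized counts were 373303, 390991 and 351040 in the GalNAc-siNC group and 258941, 261380 and 258692 in the GalNAc-siRnf10 group. The groups were widely separated, and the 3 GalNAc-siRnf10-treated livers were nearly equal. C3 fell by 30.2% from a mean of 371778 ± 20019 to 259671 ± 1486 (SD, n = 3), with a log2 fold change of -0.52 (SE 0.0487, 95% interval -0.62 to -0.41, adjusted p = 9.82e-07, edgeR). C3 alone took between 1.188% and 1.333% of all counts in the controls and 0.853% to 0.865% in the GalNAc-siRnf10 group.

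Cfb encodes factor B, the protease of the alternative pathway C3 convertase, and was far less abundant, at 11.0 TPM in the controls. Its normalized counts of 354, 361 and 396 in the GalNAc-siNC group stood above 257, 246 and 248 in the GalNAc-siRnf10 group. No overlap was seen, and the log2 fold change was -0.57 (SE 0.111, 95% interval -0.80 to -0.33, adjusted p = 0.00203, edgeR). Cfp, which encodes properdin, the stabilizer of that convertase, was not called, at 371 to 491 normalized counts in the controls and 391 to 444 in the GalNAc-siRnf10 group (log2 fold change -0.05, 95% interval -0.30 to 0.19, adjusted p = 0.825, edgeR). Cfd encodes factor D, the protease that cleaves factor B and is made mainly by fat, and it had 2, 2 and 4 counts in the GalNAc-siNC group and 0, 2 and 0 in the GalNAc-siRnf10 group, which is near the detection floor in both. Of 5 adipose markers, Adipoq, Plin1 and Lep were at 0 in all 6 livers, and Retn was detected only in GalNAc-siRnf10-treated mouse 2, at 1.9 normalized counts. Cidec was present in every liver, at 69.1 to 94.9 normalized counts in the controls and 87.0 to 118 in the GalNAc-siRnf10 group, and was not called. Cfb shares 2246 exon bases, 79.5% of its length, with Gm20547 on the same strand, a gene with 0 counts in every mouse, so its level depends on how shared reads were counted.

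In the classical pathway, C4b fell, whereas the other 7 genes were not called. C4b, whose product forms part of the C3 convertase shared by the classical and lectin pathways, had 84094, 96336 and 84615 normalized counts in the GalNAc-siNC group and 60350, 60106 and 60939 in the GalNAc-siRnf10 group. Every GalNAc-siRnf10-treated liver was below every control, and GalNAc-siNC-treated mouse 2 was the highest. C4b fell by 31.6%, with a log2 fold change of -0.55 (SE 0.0561, 95% interval -0.67 to -0.43, adjusted p = 2.72e-06, edgeR).

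C4a, the neighbouring paralog, had 958, 1144 and 1166 normalized counts in the controls and 914, 918 and 912 in the GalNAc-siRnf10 group, and C2, whose product is cleaved together with C4, had 906, 972 and 1000 against 891, 804 and 820. Both genes were lower in every GalNAc-siRnf10-treated mouse without passing the test, at log2 fold changes of -0.25 (95% interval -0.43 to -0.07, adjusted p = 0.0642, edgeR) for C4a and -0.19 (95% interval -0.37 to -0.02, adjusted p = 0.133, edgeR) for C2. When GalNAc-siNC-treated mouse 1, the library that stood apart by gene length, was left out, both passed, at -0.34 (adjusted p = 7.63e-04, edgeR) and -0.24 (adjusted p = 0.0307, edgeR). In that fit 2864 of all genes tested were called, beside 1965 with all mice. With a correction for GC content and length, neither passed, at -0.12 (adjusted p = 0.305, edgeR) for C4a and -0.14 (adjusted p = 0.195, edgeR) for C2. C4a and C4b share 16.5% of the 100-base windows of their transcripts, so the split of reads between them is uncertain. C2 shares 42.8% of its exon length with Gm20547. The ratio of C4b to C4a was between 72.6 and 87.8 in the controls and 65.5 to 66.9 in the GalNAc-siRnf10 group (p = 0.1 by an exact two-sided permutation test, the smallest that 3 against 3 can give).

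The 3 C1q genes, which encode the chains of the recognition molecule and in liver are mainly expressed by macrophages, were not called. C1qa had 560, 923 and 860 normalized counts in the GalNAc-siNC group and 926, 793 and 836 in the GalNAc-siRnf10 group (log2 fold change 0.13, 95% interval -0.30 to 0.56, adjusted p = 0.72, edgeR). C1qb had 695, 914 and 843 against 858, 897 and 719 (log2 fold change 0.02, 95% interval -0.21 to 0.24, adjusted p = 0.947, edgeR). C1qc had 568, 873 and 780 against 704, 689 and 738 (log2 fold change -0.06, 95% interval -0.34 to 0.23, adjusted p = 0.83, edgeR). The groups overlapped for all 3 genes, and GalNAc-siNC-treated mouse 1 was the lowest of the 6 livers for each. Without that mouse the log2 fold changes were -0.07, -0.09 and -0.22, with the smallest adjusted p at 0.0669 for C1qc (edgeR). No C1q gene passed an unadjusted p of 0.05, DESeq2 or limma voom over the 6 mice. Kupffer cell and macrophage markers summed to between 5340 and 6145 normalized counts in the controls and 5619 to 5929 in the GalNAc-siRnf10 group. None of these 8 markers was called by edgeR, DESeq2 or limma voom, and 2 had an unadjusted p under 0.05, both in the lower direction. Their part in the C1q values was not tested. C1ra and C1s1, which encode the proteases of the C1 complex, had log2 fold changes of -0.07 (95% interval -0.18 to 0.05, adjusted p = 0.496, edgeR) and -0.01 (95% interval -0.13 to 0.10, adjusted p = 0.9, edgeR). C1ra shares 35.9% of its 100-base windows with other genes, mainly C1rb, which had at most 27 counts in a mouse.

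The lectin pathway split, with 2 genes that fell and 3 that rose among 7 tested. Mbl1 had 6704, 8119 and 8436 normalized counts in the GalNAc-siNC group and 6255, 6154 and 6142 in the GalNAc-siRnf10 group. The groups did not overlap, but GalNAc-siNC-treated mouse 1 was closer to the GalNAc-siRnf10-treated mice than to the other controls. Mbl1 fell by 20.2% (log2 fold change -0.33, SE 0.0740, 95% interval -0.48 to -0.17, adjusted p = 0.00659, edgeR), and its call was lost without GalNAc-siRnf10-treated mouse 3 (adjusted p = 0.0511, edgeR).

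Mbl2 went the other way, from 8446, 8844 and 8907 normalized counts in the GalNAc-siNC group to 11080, 10787 and 10490 in the GalNAc-siRnf10 group. It rose by 23.5% with no overlap between groups (log2 fold change 0.30, SE 0.0546, 95% interval 0.19 to 0.42, adjusted p = 9.72e-04, edgeR). The ratio of Mbl2 to Mbl1 counts was 1.26, 1.089 and 1.056 in the controls and 1.771, 1.753 and 1.708 in the GalNAc-siRnf10 group (p = 0.1 by an exact two-sided permutation test, the smallest possible here). With a GC content and gene length correction, the log2 fold change of Mbl1 was -0.46 (adjusted p = 5.12e-06, edgeR) and that of Mbl2 was 0.12 and no longer called (adjusted p = 0.0551, edgeR).

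Colec10 and Colec11 encode the collectins CL-L1 and CL-K1, which bind sugars as a heteromer, and both were low in abundance. Colec10 had 192, 173 and 217 normalized counts in the GalNAc-siNC group and 290, 256 and 280 in the GalNAc-siRnf10 group (log2 fold change 0.50, SE 0.129, 95% interval 0.23 to 0.77, adjusted p = 0.0143, edgeR). For Colec11 the values were 286, 267 and 290 against 382, 320 and 388 (log2 fold change 0.37, SE 0.116, 95% interval 0.13 to 0.61, adjusted p = 0.0422, edgeR). Both collectins rose without overlap between groups. Colec10 lost its call in 3 of the 6 fits that left out a mouse (adjusted p between 0.0564 and 0.0826, edgeR), and Colec11 in 4 of them (adjusted p between 0.0716 and 0.186, edgeR). Colec11 was also not called with the GC content and length correction (log2 fold change 0.27, adjusted p = 0.111, edgeR), under which Colec10 was the only 1 of the 3 lectins that rose to be called (log2 fold change 0.49, adjusted p = 0.00772, edgeR). Stellate cell markers summed to between 3180 and 3286 normalized counts in the controls and 3799 to 3976 in the GalNAc-siRnf10 group, and their median log2 fold change was -0.03. Of the 7, Reln, Dcn and Ecm1 were higher, while Lrat, Pdgfrb, Des and Hgf were not called and had log2 fold changes of -0.27, -0.25, -0.20 and -0.03. The part of stellate cells in the collectin values was not tested. In liver tissue, fewer cells of a type and less RNA per cell cannot be told apart.

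Masp1 encodes a protease that the lectins carry. Its normalized counts were 6888, 6000 and 5896 in the GalNAc-siNC group and 5227, 4958 and 5055 in the GalNAc-siRnf10 group, with no overlap. Masp1 fell (log2 fold change -0.30, SE 0.0667, 95% interval -0.44 to -0.16, adjusted p = 0.0051, edgeR), and without GalNAc-siRnf10-treated mouse 2 the log2 fold change was -0.28 and the call was lost (adjusted p = 0.0513, edgeR). Masp2, the protease that cleaves C4 and C2, was not called, at 4687 to 5059 normalized counts in the controls and 4912 to 5143 in the GalNAc-siRnf10 group (log2 fold change 0.05, 95% interval -0.08 to 0.17, adjusted p = 0.665, edgeR). Exons of Tardbp on the opposite strand cover 54.9% of Masp2's length, and since the strand setting of the counting is unknown its level is uncertain. Fcna, encoding ficolin A, was likewise not called (log2 fold change 0.16, 95% interval -0.10 to 0.43, adjusted p = 0.43, edgeR).

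Of the 6 terminal pathway genes, 5 fell. Hc, encoding C5, the source of the anaphylatoxin C5a and the first part of the attack complex, had 61848, 52332 and 52252 normalized counts in the GalNAc-siNC group and 44985, 44227 and 44172 in the GalNAc-siRnf10 group. GalNAc-siNC-treated mouse 1 was the highest, and no values overlapped (log2 fold change -0.32, SE 0.0619, 95% interval -0.45 to -0.19, adjusted p = 0.00189, edgeR). C6, which binds C5b, had 17648, 15723 and 16242 against 12906, 12993 and 13358 (log2 fold change -0.34, SE 0.0566, adjusted p = 5.26e-04, edgeR). C8a encodes the alpha chain of C8, a membrane-inserting subunit, and had 45666, 39404 and 40000 against 31444, 30858 and 31266. It fell by 25.2%, with a log2 fold change of -0.42 (SE 0.0586, 95% interval -0.54 to -0.29, adjusted p = 9.05e-05, edgeR). C8b, the beta chain gene, had 21568, 19647 and 20074 against 16932, 16486 and 16864 (log2 fold change -0.29, SE 0.0539, adjusted p = 0.00151, edgeR). C9, whose product polymerizes into the pore, had 40235, 35631 and 36845 against 32587, 32095 and 31652 (log2 fold change -0.23, SE 0.0547, adjusted p = 0.00978, edgeR). The groups were separated for all 5 genes, with GalNAc-siNC-treated mouse 1 the highest in each. Without that mouse all 5 were still called, C9 among them (log2 fold change -0.18, adjusted p = 8.68e-04, edgeR), whereas the call was lost without any one of the 3 GalNAc-siRnf10-treated mice (adjusted p between 0.063 and 0.0877, edgeR).

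C8g, encoding the gamma chain, a lipocalin joined to the alpha chain, was the exception. Its normalized counts were 6007, 7890 and 8711 in the GalNAc-siNC group and 9114, 9306 and 8427 in the GalNAc-siRnf10 group. The groups overlapped, and GalNAc-siNC-treated mouse 1 was the lowest (log2 fold change 0.25, SE 0.134, 95% interval -0.07 to 0.57, adjusted p = 0.303, edgeR). Without GalNAc-siNC-treated mouse 1 the log2 fold change was 0.11 (adjusted p = 0.134, edgeR). It was called higher without GalNAc-siNC-treated mouse 3 (log2 fold change 0.36, adjusted p = 0.0428, edgeR) and without a filter on low counts (log2 fold change 0.24, adjusted p = 0.00541, edgeR). The ratio of C8a to C8g counts was 7.602, 4.994 and 4.592 in the controls and 3.45, 3.316 and 3.71 in the GalNAc-siRnf10 group, and that of C8a to C8b was 2.117, 2.006 and 1.993 against 1.857, 1.872 and 1.854 (p = 0.1 for each by an exact two-sided permutation test, the smallest possible here).

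**Figure D2:**
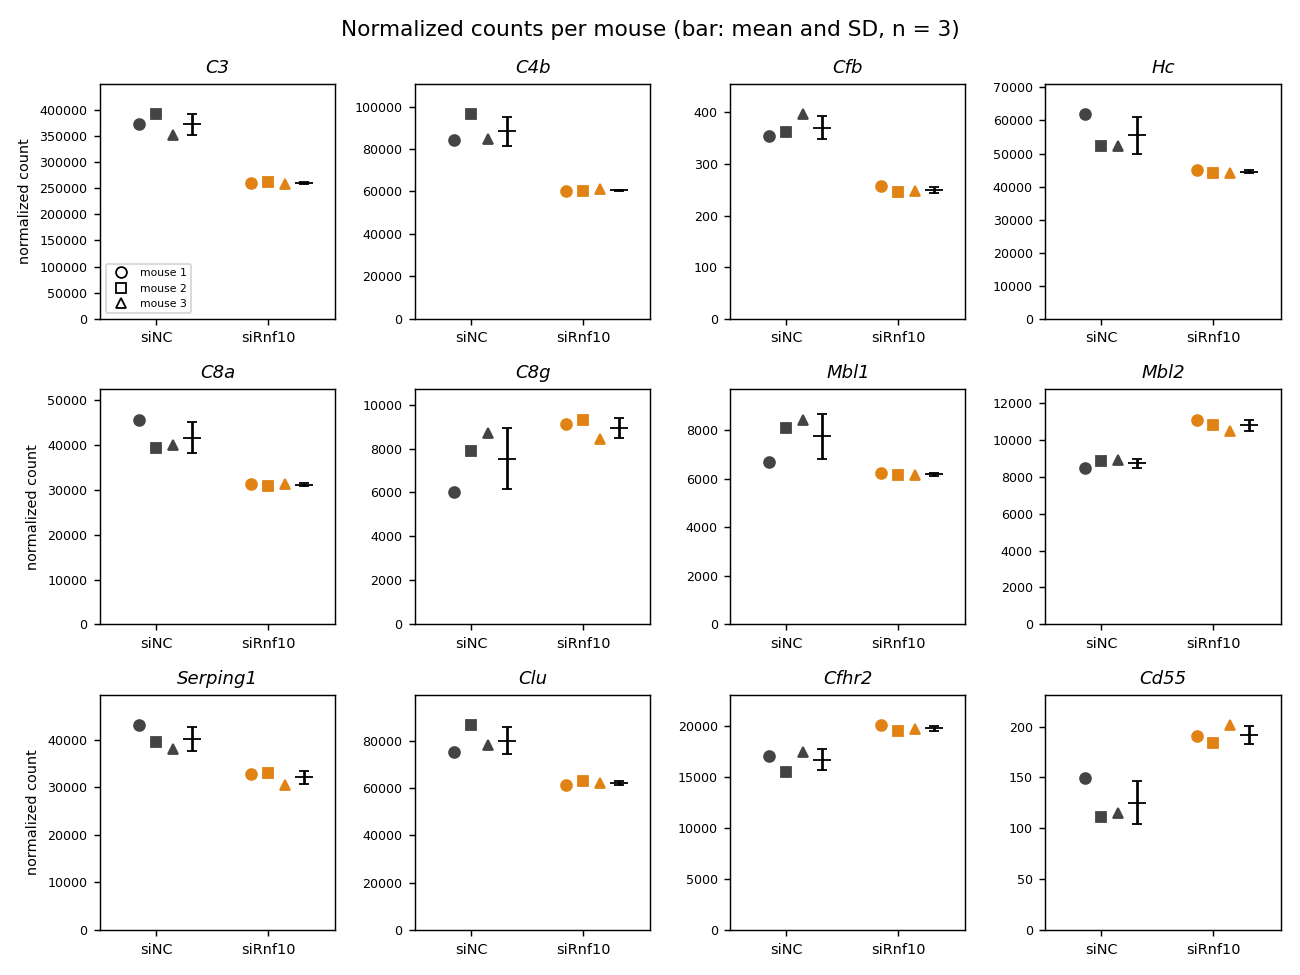
Normalized counts (y axis, from 0) of 12 members in each of the 3 GalNAc-siNC-treated (gray) and 3 GalNAc-siRnf10-treated (orange) mice. Bars give the mean and SD, and marker shapes the mouse numbers, which are not taken to pair mice between groups. C3 drops from at least 351040 to at most 261380, and C8g is the gene shown here whose groups overlap.

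Among the regulators in plasma, 3 fell and 1 rose. Serping1, encoding the C1 inhibitor, had 43031, 39510 and 38029 normalized counts in the GalNAc-siNC group and 32684, 33022 and 30548 in the GalNAc-siRnf10 group (log2 fold change -0.32, SE 0.0571, adjusted p = 8.12e-04, edgeR). Clu, encoding clusterin, which blocks assembly of the attack complex, had 75257, 86425 and 78048 against 61344, 63018 and 61912 (log2 fold change -0.36, SE 0.0551, adjusted p = 2.05e-04, edgeR). C4bp, encoding the C4b-binding protein, had 30114, 28435 and 29373 against 24608, 24512 and 25175 (log2 fold change -0.24, SE 0.0504, adjusted p = 0.00318, edgeR). These inhibitor transcripts thus fell alongside the components, with every GalNAc-siRnf10-treated mouse below every control.

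Cfhr2, which encodes a plasma protein that binds C3 fragments, had 17082, 15502 and 17466 normalized counts in the GalNAc-siNC group and 20041, 19466 and 19681 in the GalNAc-siRnf10 group. It rose by 18.3% without overlap (log2 fold change 0.24, SE 0.0564, 95% interval 0.12 to 0.36, adjusted p = 0.00766, edgeR). That call was lost without GalNAc-siRnf10-treated mouse 1 (adjusted p = 0.0736, edgeR) or mouse 3 (adjusted p = 0.0583, edgeR), the correction for GC content and length lowered it to 0.14, and 19.9% of its 100-base windows occur in other genes, so its counting is uncertain. Cfi, encoding factor I, the protease that inactivates C3b and C4b, had 27142, 26229 and 27191 against 24576, 24156 and 24054. It was below the controls in every GalNAc-siRnf10-treated mouse but missed the threshold (log2 fold change -0.15, 95% interval -0.25 to -0.04, adjusted p = 0.0604, edgeR), which it passed without GalNAc-siNC-treated mouse 1 (adjusted p = 0.00979, edgeR) or mouse 2 (adjusted p = 0.0262, edgeR) and in limma voom (adjusted p = 0.0162). With the GC content and length correction it was called at a log2 fold change of -0.23 (adjusted p = 8.83e-05, edgeR).

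On cell membranes, Cd55 encodes decay-accelerating factor, which dissociates the C3 convertases. It had 150, 111 and 115 normalized counts in the GalNAc-siNC group and 191, 184 and 201 in the GalNAc-siRnf10 group. By normalized counts Cd55 rose by 53.3% with no overlap (log2 fold change 0.61, SE 0.154, 95% interval 0.29 to 0.93, adjusted p = 0.0127, edgeR). Its mean level was 2.18 TPM in the GalNAc-siNC group and 3.09 TPM in the GalNAc-siRnf10 group. Cd55 lost its call in 4 of the 6 fits that left out a mouse (adjusted p between 0.0521 and 0.0693, edgeR). Cd59a, an inhibitor of pore formation, was not called (log2 fold change 0.12, 95% interval -0.04 to 0.27, adjusted p = 0.339, edgeR), and neither was Cd46, a cofactor for C3b cleavage that had 26 to 52 normalized counts (log2 fold change 0.26, 95% interval -0.40 to 0.92, adjusted p = 0.649, edgeR).

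The anaphylatoxin receptor genes were near the lower end of what this depth could measure. C3ar1 had 19, 41 and 31 normalized counts in the GalNAc-siNC group and 43, 46 and 20 in the GalNAc-siRnf10 group, with overlap (log2 fold change 0.28, 95% interval -0.50 to 1.05, adjusted p = 0.685, edgeR). C5ar1 had 17, 19 and 10 against 17, 20 and 9 (log2 fold change -0.00, 95% interval -0.96 to 0.96, adjusted p = 0.996, edgeR). At these counts the intervals of both receptors were wider than that of any other tested member.

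Most of the abundant members fell. Of the 14 members with a mean of at least 10000 normalized counts, 10 fell and 1 rose, whereas among all 364 tested genes this abundant 19.8% were lower and 32.1% higher. The median log2 fold change was -0.30 over these members and 0.10 over these genes. Of the 13 tested members with a mean under 1000, Cfb fell and 3 rose. Cfb and C2 stand in this class by counts that depend on how reads shared with Gm20547 were counted. Across the 34 tested members, Spearman's rho between log2 fold change and mean normalized count was -0.642, and over all genes tested it was 0.0304. Between log2 fold change and gene length, rho was -0.305 over the members and -0.192 over all genes tested. These values are given as a description because the members come from the same 6 libraries. Together the members took between 2.907% and 3.131% of all counts in the controls and 2.271% to 2.283% in the GalNAc-siRnf10 group. Without C3 these shares were between 1.719% and 1.834% and between 1.415% and 1.419%.

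**Figure D3:**
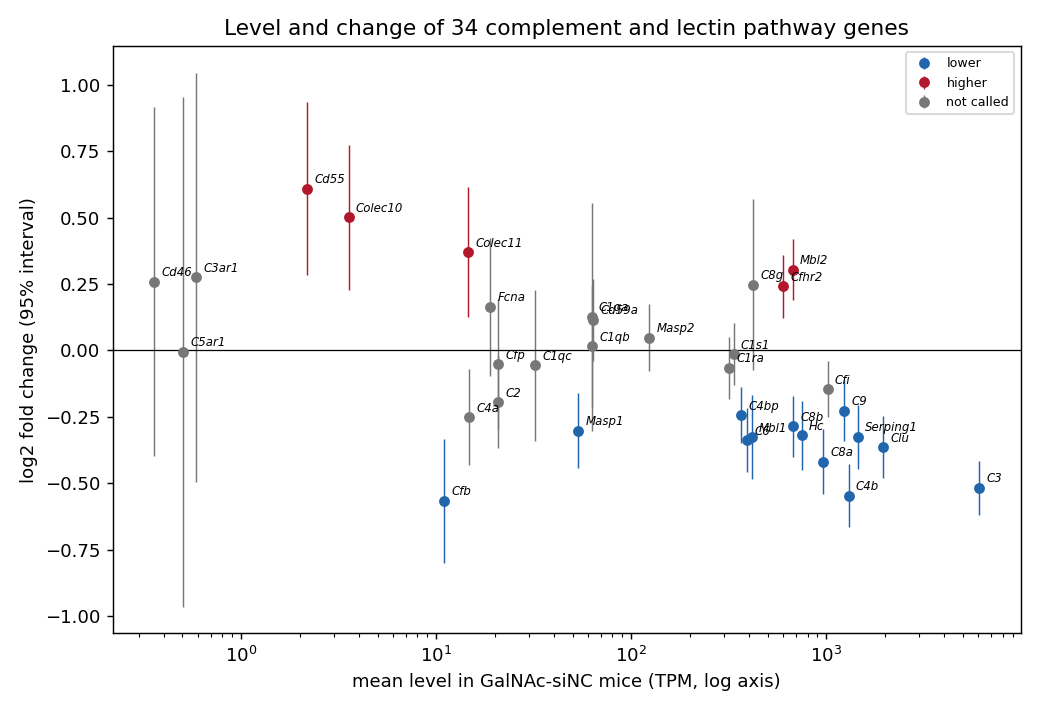
Log2 fold change (y axis) of the tested members against their level in the GalNAc-siNC group (x axis, mean TPM on a log scale), with lines for the 95% interval and colors for the edgeR call at an adjusted p under 0.05 (n = 3 mice per group). The abundant members on the right lie mostly below 0, with C3 the farthest right at 6074 TPM and -0.52.

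Values also varied less among the GalNAc-siRnf10-treated mice. The coefficient of variation was smaller in that group for 29 of the 34 tested members, with medians of 2.47% against 7.55% in the controls. Over all genes tested the medians were 7.33% and 11.1%, so the smaller spread was not particular to the members. How many of all genes tested had the smaller coefficient in that group was not counted. The controls include GalNAc-siNC-treated mouse 1, which stood apart by gene length, and its part in the spread was not tested.

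Some members are neighbours in the genome (GRCm38). C4b, C4a, C2 and Cfb lie together on chr17:34728380-34898265, and all 4 were below the controls in every GalNAc-siRnf10-treated mouse, with C4b and Cfb called. C8a and C8b, on chr4:104766317-104876398, both fell, whereas none of the C1q genes at another site of that chromosome, chr4:136880129-136898803, was called.

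Outside the members, 25 further genes of the complement system were listed, of which 19 could be tested. Of these, 6 fell and 1 rose, while 7.28% of all genes tested were lower and 6.71% higher. The 1 that rose is not a larger share than that of all genes tested. Vtn, encoding vitronectin, which keeps the attack complex out of membranes, was among those that fell (log2 fold change -0.29, adjusted p = 7.21e-04, edgeR). So were C1rl at -0.31, the carboxypeptidase N subunit genes Cpn1 at -0.20 and Cpn2 at -0.27, and the scavenger receptor gene Colec12 at -0.29. The call of Cpn1 was lost in DESeq2 (adjusted p = 0.0796) and in 5 of the 6 fits that left out a mouse (adjusted p between 0.083 and 0.199, edgeR), all but that without GalNAc-siNC-treated mouse 1. C1qbp, encoding a mostly mitochondrial protein that binds C1q, rose (log2 fold change 0.30, adjusted p = 0.00997, edgeR). C1rb was not called (log2 fold change -0.04, adjusted p = 0.965, edgeR). Among the untested genes, Fcnb, a ficolin gene, was at 0 in all 6 livers.

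Other gene groups moved in the same livers. Of 18 acute phase genes, which hepatocytes induce in inflammation as they do C3, C4b and Cfb, 17 fell and only Crp was not called (log2 fold change -0.06, adjusted p = 0.537, edgeR), with a median log2 fold change of -0.80. Their normalized counts summed to between 2142742 and 2340236 in the controls and 1333693 to 1356124 in the GalNAc-siRnf10 group. Of 8 hepatocyte markers, 3 (Alb, Ttr and Cps1) rose, and the sum of the 8 went from between 1678271 and 1817755 to between 2451657 and 2531167. Most of that rise was Alb, with a mean of 1159043 in the controls and 1805569 in the GalNAc-siRnf10 group. The other 5 markers were not called, with log2 fold changes from -0.12 for Asgr2 to 0.11 for Asgr1, and the median of the 8 was 0.10. Sinusoidal endothelial markers summed to between 2132 and 2149 in the controls and 2352 to 2448 in the GalNAc-siRnf10 group, with Clec4g and Lyve1 of the 6 higher. Stab2, the most abundant of them by counts, lay below the controls in every GalNAc-siRnf10-treated mouse and was not called by edgeR (log2 fold change -0.26, adjusted p = 0.0544), while limma voom called 1 of the 6 lower. Neutrophil markers were scarce, at sums of 31.3 to 67.2 and 17.0 to 23.7, and the one tested, S100a9, fell (log2 fold change -1.43). The part of any of these in the complement values was not tested.

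Of the 13 members that fell, 10 were called in each of the 15 other fits tried, and C9, Masp1 and Mbl1 were not called in at least 1 of them. None of the 5 that rose was called in all 15.

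**Figure D4:**
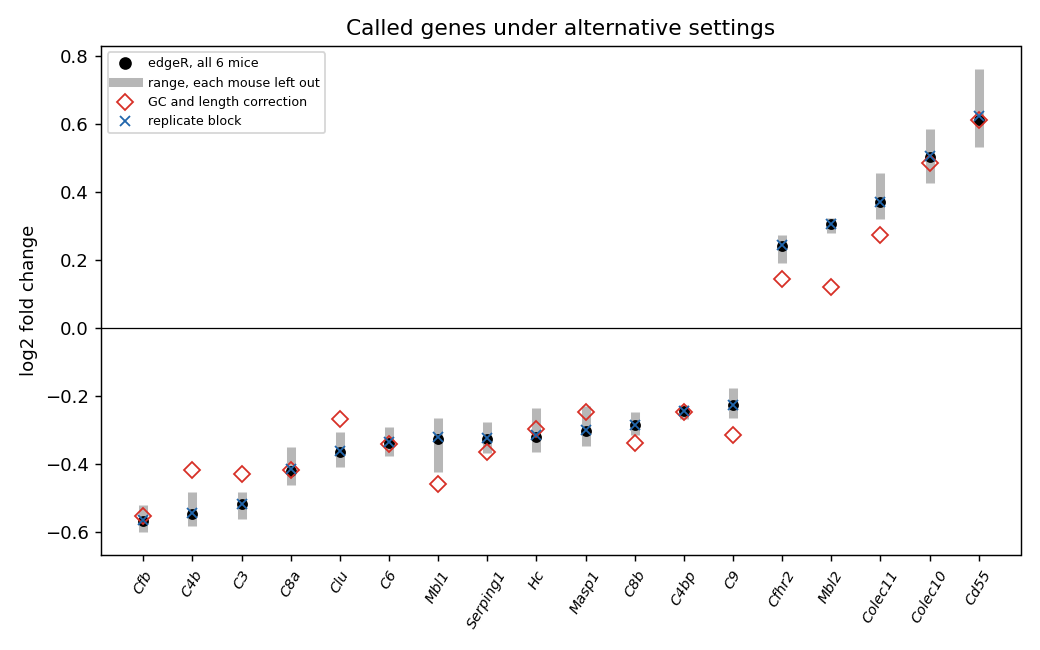
Log2 fold change (y axis) of the 18 called members (x axis) with all 6 mice (black points), after a GC content and gene length correction (red diamonds) and with the replicate number as a block (blue crosses). Gray bars span the fits that each left out 1 mouse. All values keep their sign, and with the correction Mbl2 lies at 0.12 in place of 0.30.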

How the data were processed

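Liver RNA was extracted with TRIzol, and stranded mRNA libraries of 3 GalNAc-siNC-treated and 3 GalNAc-siRnf10-treated mice were sequenced paired-end on a DNBSEQ platform. The authors used HISAT2 to map reads to GRCm38, and the deposited values are raw counts, with no normalization, for 55487 Ensembl identifiers. The counting tool, annotation release and strand setting are not given in the sources used here. Each gene's length in bases was also deposited by the authors and served for TPM. The names of 346 identifiers could not be matched to GENCODE M21, and 59 of the 60 complement genes have the same start and end there. Groups were taken from the labels, which name separate mice.

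From these counts, genes were tested with edgeR 4.0.16 in R 4.3.3 (filterByExpr, TMM, robust quasi-likelihood F-test, treatment as the only covariate, Benjamini-Hochberg adjustment over all 14046 genes tested, called at an adjusted p under 0.05). Normalized counts are TMM-scaled. The common dispersion was 0.00861, a biological coefficient of variation of 9.28%. For ratios, an exact permutation test (two-sided) was used. The members, the further complement genes and the marker lists were chosen with earlier results of these data known. All called members, and the members with the most counts in each role, are named with a value per mouse. Of the further genes, those called and C1rb and Vtn are named, except 1 that is not reported here, and Fcnb was added after its values were seen.

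Same-numbered mice of the groups are different animals, and the replicate block was an alternative only. Others were RLE and upper-quartile normalization, no filter, a minimum of 10 counts per mouse, DESeq2 1.42.0, limma 3.58.1 voom with sample quality weights, an adjusted p under 0.01, and leaving out each mouse. A correction for GC content and length (splines with 5 degrees of freedom, as offsets, GC content known for 14034 of the genes tested), without and with the block, was added after seeing the data. The edgeR fit without and with the block, DESeq2 and limma voom were tested on simulated counts. These had the same spread in both groups and larger changes than the members, so they do not bear on calls of that size. Promoter windows came from RefSeq (GRCm38.p6), and the HNF1 and NF-kB motifs were shortened by 1 base after first matches had been seen. Python 3.11.15, pandas 2.3.3, numpy 2.4.6, scipy 1.17.1 and matplotlib 3.10.9 were used.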

Additional observations from a re-analysis of the deposited data

How the results depend on the processing

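The count of members that fell was 13 with all mice and lay between 11 and 16 over the alternatives, so that no setting moved it by 1.5 times. The count that rose was less stable, at 5 with all mice, 3 with the correction for GC content and gene length, 3 with that correction and the replicate block together, and 2 at an adjusted p under 0.01. Leaving out 1 mouse gave 1 to 5 members that rose, with 1 without GalNAc-siRnf10-treated mouse 1 or mouse 3 and 2 without GalNAc-siNC-treated mouse 2. Calls over all genes tested, in both directions together, numbered 1965 with all mice and 2384 with the correction. They numbered 1053 and 1128 without GalNAc-siRnf10-treated mouse 1 or mouse 3, and 1633 without GalNAc-siNC-treated mouse 2. Without GalNAc-siNC-treated mouse 1 they numbered 2864 and without GalNAc-siRnf10-treated mouse 2 1128, with 5 members that rose in each. The cause of the differences between these fits was not tested. The median log2 fold change of the members, -0.06 with all mice, lay between -0.147 and -0.045 when 1 mouse was left out, and the -0.147 came without GalNAc-siNC-treated mouse 1, whose long genes ran high.

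Among the further complement genes, the count that rose was 1 and went from 0 to 2 with 1 mouse left out. It was 0 without GalNAc-siRnf10-treated mouse 2 or mouse 3 in edgeR, where 2 and 1 of these genes had an unadjusted p under 0.05, and it was 1 in DESeq2 and in limma voom with all mice. With the replicate number as a block, 13 members fell and 5 rose, the same genes as without it, and of the further genes Cpn1 lost its call (adjusted p = 0.0503, edgeR), as it did in DESeq2 and in 5 of the 6 fits without 1 mouse. Correlations of the deviations of same-numbered mice were -0.003, 0.023 and -0.033, beside -0.032 to 0.034 for differently numbered mice. No sign of pairing was seen, although so few mice cannot exclude it. No log2 fold change of a called member or of Rnf10 changed sign under any alternative. At this depth, members with few counts (Cd46, C3ar1, C5ar1) had intervals too wide to show changes of the size seen for abundant members, and Cfd could not be tested.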
